A study of Mus musculus with 2 samples.

Results

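The respiratory chain is the set of mitochondrial enzyme complexes that pass electrons to oxygen, together with the ATP synthase that uses the resulting proton gradient. The genes described here are those nuclear genes on the array whose names mark them as parts of complex I (Ndufa, Ndufb, Ndufc, Ndufs and Ndufv), complex II (Sdha to Sdhd), complex III (names beginning Uqcr), complex IV (Cox4 to Cox8) or complex V (names beginning Atp5). The name rule found 85 of the 29924 gene names on the array, carried by 124 probes, and each gene was read from its brightest probe. Complex I held 37 of them, complex II 4, complex III 8, complex IV 18 and complex V 18. A few of these names belong to genes that are not core subunits of the complex they were counted under. They are Ndufa4, which is now assigned to complex IV, its relative Ndufa4l2, the supercomplex factor Cox7a2l, the ATP synthase-related genes Atp5s and Atp5sl, and the pseudogene Atp5c1-ps. The rule used names alone and no measured value, but the group was chosen with earlier results of these data known.

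The study asked which genes in the newborn mouse ureter depend on WNT signaling. Ureters of wild-type NMRI mice were taken at postnatal day P0 and kept as explants in culture for 18 h, either in 5 µM IWP-2 or in its solvent DMSO at 1:1000. IWP-2 inhibits Porcupine (PORCN), the acyltransferase that WNT ligands need for secretion. Each channel of an array carried RNA from 1 pool of 5 to 6 whole ureters of 1 sex, in which urothelium, fibroblasts and smooth muscle were not separated. There were 2 two-color arrays, so n = 2 throughout. Replicate 1 compared female pools with the control labeled green and IWP-2 red, and replicate 2 compared male pools with the dyes exchanged, so that sex, dye orientation and array cannot be told apart. No fluorescent spot was saturated in either array, and between 68.4% and 70.0% of spots were well above background in each of the 4 channels. Of the genes named here 82 passed the signal filter (mean signal above 100 in at least 1 condition) and were tested among 14336 genes. As a check of the treatment, Axin2, a feedback gene of canonical WNT signaling, fell from 181 to 42.2 in replicate 1 and from 154 to 46.7 in replicate 2, a mean log2 ratio of -1.91 (adjusted p = 0.000824, limma, n = 2). The Axin2 call was lost with no signal filter (adjusted p = 0.624, limma) and with the rounded fold changes of the series table (0.323). With a signal filter of 200, Axin2 did not pass and was not tested. It was also not tested as a mean over its probes, where the ratio was -1.12.

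Complex IV, or cytochrome c oxidase, reduces oxygen to water at the end of the chain. Its catalytic core is encoded by mitochondrial DNA, and nuclear genes supply the surrounding subunits. Several of these subunits come in paralogs that differ between tissues. Cox8a is the ubiquitous form of subunit VIII, while Cox8b is the form known from heart, skeletal muscle and brown fat of rodents, and Cox8c is known from testis.

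Cox8b was lower with IWP-2, and no other respiratory chain gene that could be tested passed the test. The Cox8b signal was 477 in the control and 246 with IWP-2 in replicate 1, and 399 in the control and 203 with IWP-2 in replicate 2. Both IWP-2 channels lay below both control channels. The signal was 1.94-fold lower in the female and 1.97-fold lower in the male pools, with log2 ratios of -0.96 and -0.98. The mean log2 ratio was -0.97 (SE 0.067, 95% interval -1.13 to -0.81, adjusted p = 0.00235, limma, n = 2). The spots of its single probe gave the same picture, with log2 ratios between -0.98 and -0.94 over the 3 spots kept in replicate 1 and between -0.99 and -0.97 over the 4 spots in replicate 2. The call was lost with no filter on dim probes (adjusted p = 0.365, limma), with the 4 channels fitted without their pairing by array (0.347) and with the rounded fold changes of the series table (0.0691). The ratio itself stayed between -0.97 and -0.92 under 12 alternatives. Of these, the signal filters, the floor, the pairing, the probe summary and the quantile scaling of average signals between arrays could not change the ratio of a single-probe gene above the floor. Cox8b ranked 24th from the lowest of 14336 genes. In whole tissue, fewer cells of a type and less RNA per cell cannot be told apart.

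**Figure D1:**
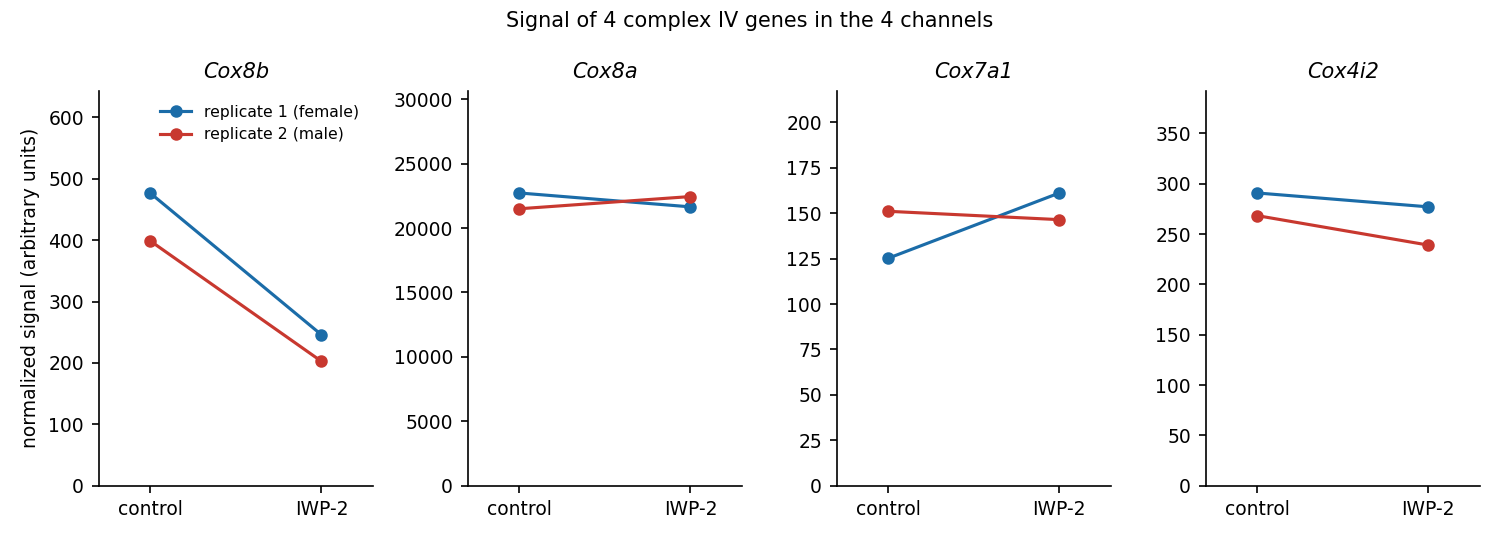
Normalized signal (arbitrary units, axes from 0 and separate for each gene) of Cox8b, Cox8a, Cox7a1 and Cox4i2 in the control and IWP-2 channels; each line joins the channels of 1 array, female pools in blue and male pools in red. Both lines fall for Cox8b, by 1.94-fold and 1.97-fold, while those of Cox8a and Cox7a1 run in opposite directions.

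The ratio of Cox8a was near 0. Its signal went from 22730 to 21650 in replicate 1 and from 21500 to 22450 in replicate 2, so that the treated and control channels overlapped. The mean log2 ratio was -0.004 with a 95% interval of -0.18 to 0.17 (adjusted p = 0.998, limma, n = 2). Subtracting the log2 ratio of Cox8a from that of Cox8b left -0.89 for the female and -1.04 for the male pools, on average -0.96 ± 0.11 (SD, n = 2). An exact test on 2 arrays cannot give a p below 0.5. Against the median of the other complex IV genes the Cox8b ratio differed by -0.95 and -0.97. The third paralog, Cox8c, stayed at or below the floor of 15 in all 4 channels and was not tested.

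The Cox8b probe is a 60-base oligonucleotide that the array design places at chr7:148084852-148084911 of the mouse build mm9. Its longest run of letters in common with either Cox8a probe was 6 bases. It shared at most 10 bases with any of the 123 other probes of these genes and at most 13 with any of the 39428 other probes on the array. RefSeq places the protein-coding gene Cox8b at chr7:140898942-140900446 and Cox8a at chr19:7215158-7217616 in GRCm38.p6, both on the minus strand.

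The 250 bases before the annotated start of each gene are shown because the ratios of these paralogs differed in both arrays. That difference was not tested. Both are from RefSeq (GRCm38.p6), minus strand, 5′ to 3′, Cox8b from chr7:140900447-140900696 and Cox8a from chr19:7217617-7217866. Capitals mark every match, on either strand, to the motif letters listed after the sequences.
Cox8b: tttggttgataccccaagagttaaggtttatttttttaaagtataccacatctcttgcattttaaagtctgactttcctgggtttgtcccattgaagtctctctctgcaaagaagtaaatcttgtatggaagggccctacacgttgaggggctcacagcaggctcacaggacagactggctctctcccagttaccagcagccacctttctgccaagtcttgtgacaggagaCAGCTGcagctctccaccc
Cox8a: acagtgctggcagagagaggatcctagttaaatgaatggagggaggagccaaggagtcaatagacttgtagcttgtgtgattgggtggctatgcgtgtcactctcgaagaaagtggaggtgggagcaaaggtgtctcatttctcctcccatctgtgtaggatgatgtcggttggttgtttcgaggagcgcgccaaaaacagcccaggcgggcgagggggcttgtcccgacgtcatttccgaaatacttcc

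The letters searched were GCGCATGC for the factor NRF1, CCGGAAG for GABPA and other ETS factors, AAGATGGCG for YY1, TCAAGGTCA for estrogen-related receptors, CTTTGAT for TCF and LEF factors, TATAAA for the TATA box and CAGCTG for the E-box of myogenic factors. The Cox8b window held 1 of these, the E-box, whose first base lies 19 bases before the start, and the Cox8a window held none. All 85 genes were matched to RefSeq, 82 by symbol and 3 by accession, and 69 had a promoter entry in the table. Of these 69, 8 (11.6%) held the NRF1 letters at one of their starts, against 3.32% of 17492 protein-coding genes with an entry. The GABPA letters were held by 12 (17.4%, against 10.2% of all genes), the YY1 letters by 2 (2.9%, against 0.84%), the estrogen-related receptor letters by 1 (1.45%, against 0.36%), the TCF letters by 1 (1.45%, against 3.3%), the TATA letters by 6 (8.7%, against 13.7%) and the E-box by 6 (8.7%, against 13.8%). The windows also differed in CpG dinucleotides. The Cox8b window held 1 CpG and was 47.2% G or C, the fewest CpG among the 69, and the Cox8a window held 11 CpG at 52.8% G or C. Next after Cox8b came Cox7a1 and Ndufc2 with 4 each. Taking the start with the most CpG in each gene, the median was 14 for these genes and 11 for all protein-coding genes, and 75.4% of these genes but 53.1% of all had at least 10.

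The study selected genes with reduced expression by control signal and fold change. It lists Cox8b as reduced with IWP-2, from these same arrays, and also with cyclopamine, an inhibitor of SHH signaling. The Cox8b call given here is thus not independent of that list. A filter built on those limits (control signal above 100 and a change of at least 1.5-fold), required here in both arrays and applied here in both directions, gave the same count as the test. By limma 1 of the 82 genes, Cox8b, was called lower and 0 were called higher, where the background was 0.886% of genes called lower and 0.363% called higher, 1.25% in either direction. By the filter 1 of 82 was lower and 0 higher, against 0.363% and 0.0783% of the 14051 genes that could pass. Without adjustment Cox8b was also the only one of the 82 with p under 0.05, against a background of 6.64% of genes lower and 6.27% higher.

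The other 81 genes stayed close to 0. Their mean log2 ratios ran from -0.12 (Cox4i2) to 0.16 (Cox7a1) with a median of 0.003, and their SD across genes was 0.0385. For all genes tested the median was -0.006 and the SD 0.163. None of the 81 had a mean beyond 0.25 in either direction, against 7.71% of all genes. The probes of these genes were bright, with both control signals above 3000 for 75 of the 82, and the spread over all genes includes many dim probes. Among the 1866 genes at or above the lower quartile of the signal of these 82, the SD was 0.0958 and 2.63% lay beyond 0.25. The 95% intervals of the 81 genes reached from -0.29 to 0.41 at the widest, and 76 of them (93.8%) lay wholly within 0.25 of 0. For genes outside the rule 59.7% of intervals did so.

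**Figure D2:**
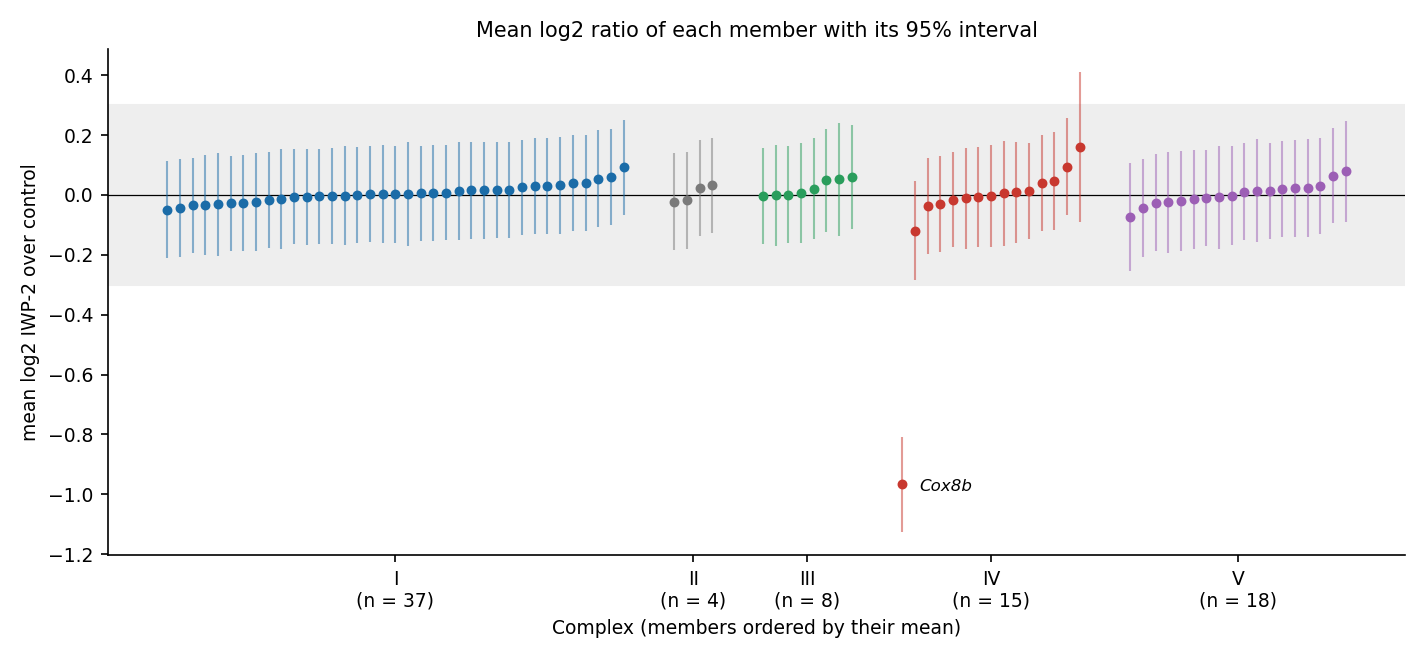
Mean log2 ratio of IWP-2 over control (points, n = 2 arrays) with the 95% interval from limma (lines) for the 82 genes tested, ordered within complexes I to V. The gray band holds the central 95% of all genes tested, from -0.30 to 0.30, and Cox8b at -0.97 is the one gene below it.

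Direction was not shared between the arrays for most of these genes. Of the 82 tested, 12 were below 0 in both arrays, 21 were above 0 in both and 49 differed in sign. The background was 29.1% of genes below 0 in both and 25.7% above 0 in both. Across the 81 genes other than Cox8b the ratios of the 2 arrays had a Pearson correlation of -0.178, against 0.437 across all genes tested. These points share the arrays and their dyes, and genes are not independent replicates.

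**Figure D3:**
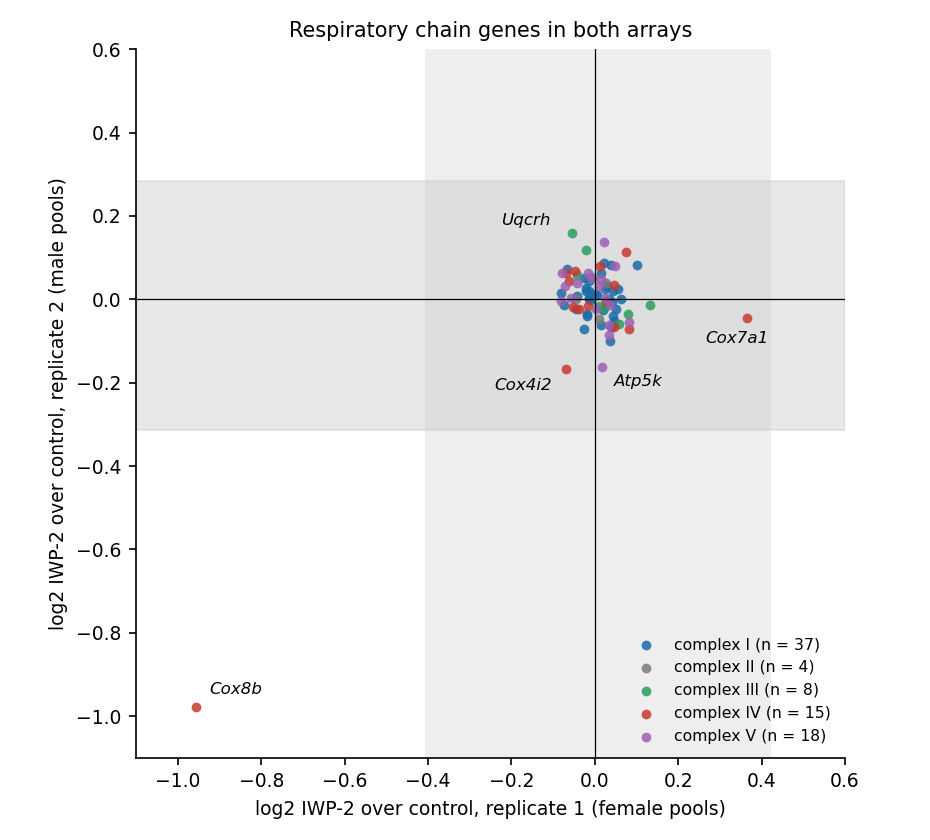
Log2 ratio of IWP-2 over control in replicate 1 (female pools, horizontal axis) and replicate 2 (male pools, vertical axis) for the 82 genes, colored by complex, with gray bands over the central 95% of all genes in each array. Cox8b sits alone at -0.96 and -0.98, and the 81 others form a cloud around 0.

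Complex I, the NADH dehydrogenase that takes electrons from NADH, had a median log2 ratio of 0.003 over 37 genes, from -0.05 to 0.09. Its lowest gene was the accessory subunit Ndufa5, with -0.03 in replicate 1 and -0.07 in replicate 2. Its highest was Ndufv3, a subunit of the NADH-oxidizing module, whose signal went from 7809 to 8379 and from 7946 to 8411. Both Ndufv3 ratios were above 0 (0.10 and 0.08), but the mean of 0.09 was within the error of the test (adjusted p = 0.753, limma, n = 2). The accessory subunit Ndufb11 had ratios of -0.03 and 0.05. Ndufa4l2, a paralog of Ndufa4 that is known as a hypoxia-induced gene, had a mean of 0.00, and the Ndufa4l2 ratio exceeded that of Ndufa4 by 0.06 and 0.03.

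Complex II, succinate dehydrogenase, links the chain to the citric acid cycle. Its 4 subunits had means between -0.02 and 0.03. The FAD-binding subunit Sdha had ratios of -0.004 and 0.05, the iron-sulfur subunit Sdhb -0.05 and 0.002, and the membrane anchors Sdhc and Sdhd 0.01 and -0.05, and 0.03 and 0.04. Sdhd was the only one above 0 in both arrays.

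Complex III passes electrons to cytochrome c. All 8 of its genes had opposite signs in the arrays, with medians of 0.02 and -0.02. Uqcrh, the hinge protein, had ratios of -0.05 and 0.16. Uqcr10 had the highest mean, 0.06, from ratios of 0.13 and -0.01, and Uqcrb the lowest, -0.004. The core subunit Uqcrc1 had 0.06 and -0.06. None of the 8 means was called by limma, and the differences between the arrays were not tested.

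Without Cox8b, the 14 tested complex IV genes had a median mean ratio of 0.001. Cox4i1, the common form of subunit IV, had ratios of 0.01 and 0.08. Cox4i2, the form known from lung and from the response to low oxygen, went from 291 to 277 and from 268 to 239, with ratios of -0.07 and -0.17. Both arrays were below 0, but the mean of -0.12 had an interval of -0.29 to 0.05 (adjusted p = 0.628, limma, n = 2). Cox4i2 minus Cox4i1 was -0.08 and -0.25 on the log2 scale.

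Cox7a1, the heart and muscle form of subunit VIIa, did not move with Cox8b. Its signal went from 125 to 161 in replicate 1 and went from 151 to 147 in replicate 2, so that the ratios were 0.37 and -0.05 and the channels overlapped. The mean was 0.16 with an interval of -0.09 to 0.41 (adjusted p = 0.703, limma, n = 2). Cox7a1 minus its common paralog Cox7a2 was 0.40 and -0.02. Cox6a2, the heart and muscle form of subunit VIa, was at or below the floor of 15 in all 4 channels. Its unfloored signal lay between 5.77 and 6.57, with 3 or 4 spots of a channel well above background. Its common paralog Cox6a1 had ratios of -0.05 and 0.07.

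Of the forms known from testis, Cox6b2 had ratios of 0.08 and -0.07 and differed from Cox6b1 by 0.06 and -0.07. Cox7b2 and Cox8c were at or below the floor in all 4 channels with 0 spots well above background, while Cox7b, the common form, had ratios of 0.05 and -0.07. Cox7a2l had both ratios above 0, 0.08 and 0.11, with a mean of 0.10 (adjusted p = 0.738, limma, n = 2).

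Complex V makes ATP. Its 18 genes had a median of 0.005 and means between -0.07 and 0.08. The lowest was Atp5k, which encodes subunit e of the membrane part, with ratios of 0.02 and -0.16. The highest was Atp5s, with 0.02 and 0.14. Atp5b, the catalytic beta subunit, had 0.02 and 0.004. The 3 paralogs of the c ring lay together, Atp5g1 at 0.01 and 0.03, Atp5g2 at -0.02 and 0.06, and Atp5g3 at -0.08 and 0.06.

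The medians of the complexes lay close to one another. Their medians of the mean ratio were 0.003 for complex I, 0.003 for complex II, 0.015 for complex III, -0.004 for complex IV and 0.005 for complex V. The complex IV median minus the complex I median was -0.02 in both arrays, and its difference from the others was between -0.04 and 0.00 in single arrays. An exact test on 2 arrays cannot give a p below 0.5. Where a gene had several probes above the signal filter, which was so for 28 genes, the mean ratios of its probes spanned a median of 0.03 on the log2 scale and at most 0.12, for Atp5g1.

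Genes around the chain that the name rule leaves out were also not called. Cytochrome c1 (Cyc1) had a mean of 0.01, cytochrome c (Cycs) 0.02 and the acyl carrier subunit Ndufab1 -0.01. With the subunits encoded by mitochondrial DNA and other neighbors of the chain, 19 such genes were tested. Of these, 0 were called in either direction by limma or by the 1.5-fold filter. At an unadjusted limma p under 0.05, 1 was lower and 0 were higher, against 6.64% and 6.27% of all genes tested. ND3, a mitochondrially encoded complex I subunit, had the lowest mean among the 19, -0.28. But its ratios were -0.48 in replicate 1 and -0.08 in replicate 2 (adjusted p = 0.315, limma, n = 2). Of the 9 genes of mitochondrial DNA among the 19, 8 were below 0 in replicate 1, with ND4L the exception (0.15 and -0.002), and 5 were below 0 in replicate 2. Their median was -0.16 in replicate 1 and -0.002 in replicate 2, and 7 of the 9 had a mean below 0. The 4 that were below 0 in both arrays were ND3, ATP8 (-0.42 and -0.03), ND2 (-0.16 and -0.14) and COX2 (-0.07 and -0.02). Over all genes tested the medians were -0.004 in replicate 1, -0.005 in replicate 2 and -0.006 for the mean. Of all genes tested 29.1% were below 0 in both arrays. Of 35 assembly factors tested 0 were called by limma and 0 had an unadjusted p under 0.05, with a median of 0.02 and a range from -0.08 (Uqcc2) to 0.15 (Tmem126b). Of 17 enzymes of the citric acid cycle and the pyruvate dehydrogenase complex 0 were called by limma and 0 had an unadjusted p under 0.05, with a median of 0.02 and a range from -0.11 (Idh2) to 0.11 (Pdha1). Of 14 regulators of mitochondrial biogenesis 0 were called by limma, and the median was -0.02. At an unadjusted limma p under 0.05, 1 was lower, against 6.64% of all genes tested. The coactivator Ppargc1a had 0.03 and 0.43, its relative Pprc1 -0.24 and -0.11, and the mitochondrial transcription factor Tfam 0.14 and -0.01.

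Cox8b is a marker of muscle and brown fat, so the other markers of such cells are given beside it. Of 12 brown adipocyte markers 5 were tested and 0 were called by limma, with a median of 0.05. At an unadjusted limma p under 0.05, 1 was lower and 2 were higher, against 6.64% and 6.27% of all genes tested. Ucp1, the uncoupling protein that defines brown fat, was at the floor of 15 in all 4 channels, as were Elovl3, Zic1 and Otop1. Ucp1 had 2 or 3 spots of a channel well above background, Otop1 had 0 to 4, and Elovl3 and Zic1 had 0. The summed signal of the list was 1409 to 1536 in the control and 1471 to 1620 with IWP-2. Dio2, which activates thyroid hormone, had -0.25 and -0.23, and the potassium channel Kcnk3 0.25 and 0.22 (adjusted p = 0.18 and 0.19, limma, n = 2).

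Of 15 general adipocyte markers 9 were tested and 0 were called by limma, and their median was 0.29. At an unadjusted limma p under 0.05, 0 were lower and 5 were higher, against 6.64% and 6.27% of all genes tested. The lipoprotein lipase gene Lpl had ratios of 0.31 and 0.68, the adipogenic receptor Pparg 0.45 and 0.26, and the fatty acid binding protein Fabp4 0.25 and 0.28. Whether these genes mark fat cells alone in whole ureters was not tested. Of the 9 tested, 7 were above 0 in both arrays, against 25.7% of all genes tested. The other 2, Adipoq (-0.55 and 1.40) and Cfd (-0.87 and 3.19), fell in replicate 1 and rose in replicate 2. Lep, Cidec, Pck1 and Aqp7 were at the floor in all channels. Plin1 (control 23.1 and 15, IWP-2 32.7 and 32.2) and Retn (control 31.8 and 15, IWP-2 39.1 and 33.7) were dim and not tested. Aqp7 had 4 spots of each channel well above background, Cidec and Pck1 had 0 or 4, and Lep had 0. The summed signal was 29296 to 29886 in the control and 36361 to 36801 with IWP-2, so that the groups did not overlap and the IWP-2 channels were the higher ones. Fabp4 was the brightest gene in that sum, at 11960 and 12390 in the control.

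Of 20 striated muscle markers 8 were tested and 0 were called by limma, with a median of 0.04. At an unadjusted limma p under 0.05, 0 were lower and 2 were higher, against 6.64% and 6.27% of all genes tested. Myoglobin (Mb), the myosin heavy chains Myh1, Myh2, Myh3 and Myh4 and the light chain Myl2 were at the floor in all channels. Myl2 had 3 or 4 spots of a channel well above background, Mb had 0 or 3, and the heavy chains had 0. Creatine kinase (Ckm) had -0.10 and 0.11 and skeletal actin (Acta1) -0.17 and 0.19, and the fast troponin Tnni2 had 0.42 and 0.29. The study also uses CKM as a marker of late smooth muscle differentiation in the ureter, so the list does not mark striated muscle alone. The summed signal of the list was 25165 to 32935 in the control and 29549 to 33107 with IWP-2, with overlap. Its brightest gene was Actc1, at 16620 and 13680 in the control. The 8 smooth muscle markers had a median of 0.16 and summed signals of 84671 to 99210 (control) and 99177 to 99251 (IWP-2). The 10 urothelial markers had a median of 0.26 and summed signals of 128235 to 156343 (control) and 161311 to 162830 (IWP-2). These sums did not overlap either, with IWP-2 higher, as for the adipocyte list. Of these markers 0 were called by limma. At an unadjusted limma p under 0.05, 2 smooth muscle and 6 urothelial genes were higher, against 6.27% of all genes tested. The part of cell composition in the Cox8b change was not tested.

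**Figure D4:**
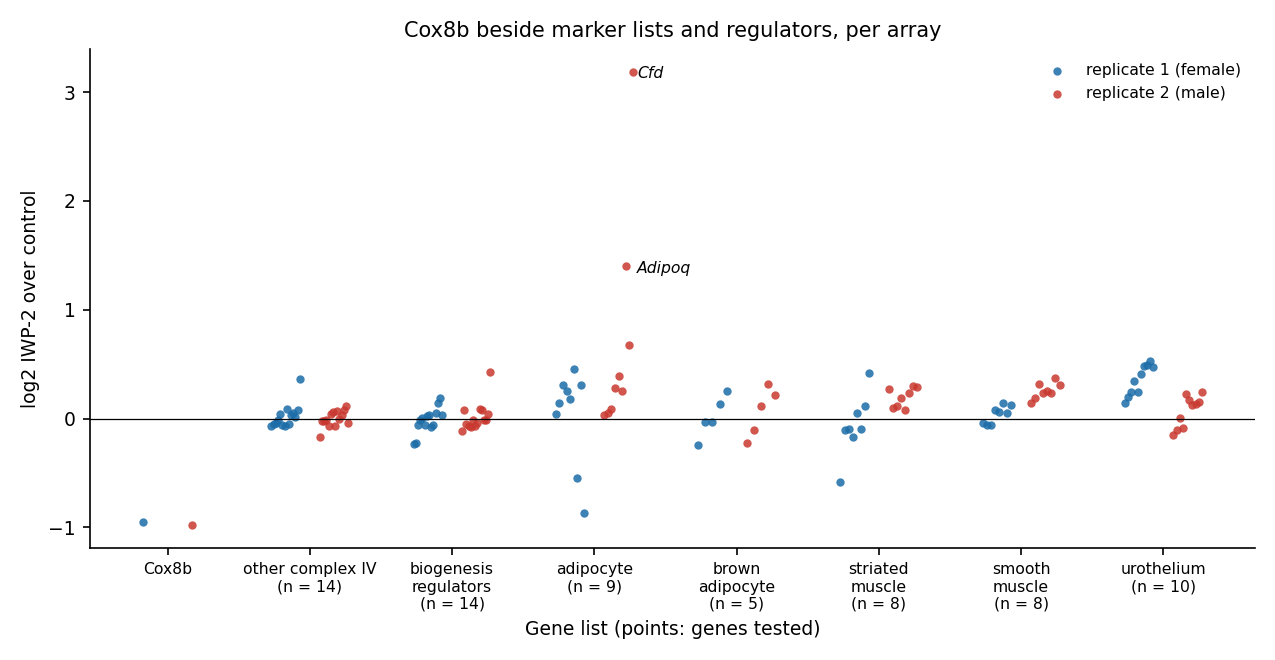
Log2 ratio of IWP-2 over control in replicate 1 (blue) and replicate 2 (red) for Cox8b, for the 14 other tested complex IV genes and for the tested genes of 6 lists, with the number of genes below each name. Cox8b lies near -1 in both arrays, while the brown adipocyte and striated muscle genes spread around 0; Cfd and Adipoq, which are named in the plot, lay above 0 in replicate 2 and below 0 in replicate 1.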

How the data were processed

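Gene expression was measured on 2 two-color Agilent 4x44K mouse arrays of pooled P0 ureters. Per the labels, control RNA was green in replicate 1 and red in replicate 2. The deposited scanner files hold intensity values that the authors extracted with Agilent Feature Extraction (version 10.7.3.1 in the submitters' processing notes, 12.2.0.7 in the file header), background-subtracted and dye-normalized. The deposited log10 ratio column was used as a check and equaled the ratio of the processed signals within 0.001 for 82.8% and 83.1% of spots; 17.2% and 16.9% of spots were listed at 0. The deposited series table holds 1 score per probe and array, a signed fold change rounded to 1 decimal, used as an alternative.

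From the processed signals, control spots and spots flagged as outliers (3.32% and 3.22%) were left out, ratios were normalized by loess within each array (limma 3.58.1, R 4.3.3), the spots of a probe (up to 4) were averaged, a floor of 15 was set, and each gene was read from its brightest probe. Genes with a mean signal above 100 in either condition were tested against 0 with lmFit and eBayes and Benjamini-Hochberg adjustment over 14336 genes; the residual degree of freedom was 1, with 5.49 prior degrees of freedom. Precision is limited by having 2 arrays. The pools of a replicate were paired by sharing an array. Promoter letters came from RefSeq (GRCm38.p6). Genes were named by a rule: Cox8b, Cox8a, tissue-restricted paralogs, the extremes and brightest member of each complex, members with opposite signs, and called genes; markers named beside them were added for their role. The values of 1 gene that the rule names are not reported here. The members and lists were chosen with earlier results of these data known. The alternatives covered the background correction, normalization, floor, flagged spots, probe summary, signal filter, fold threshold, pairing, each array left out and the series table.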

Additional observations from a re-analysis of the deposited data

Results flagged for a closer look

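Adipoq, Cfd and Myh6, which are no respiratory chain genes but stood in the marker lists, moved by more than 0.25 on the log2 scale in opposite directions in the 2 arrays, and this difference between female and male pools was not tested. For the adipokine Adipoq the log2 ratio was -0.55 in the female pools against 1.40 in the male pools (female minus male -1.95). For the adipocyte protease Cfd it was -0.87 against 3.19 (-4.06), where the control signal was 274 for females and 19.7 for males. For the cardiac myosin Myh6 it was -0.59 against 0.27 (-0.86). Sex, dye orientation and array cannot be told apart here.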

How the results depend on the processing

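The Cox8b log2 ratio stayed between -0.97 and -0.92 under 12 alternatives and was -0.98 and -0.96 with either array left out. Among the 12, the signal filters, the floor, the pairing, the probe summary and the quantile scaling of average signals between arrays could not change this ratio. The call was lost in 3 of the 12 alternatives. It had an adjusted p of 0.365 (limma) with no signal filter, where 0 genes of the whole array and 0 respiratory chain genes were called lower, and 0.347 with no replicate block, the 4 channels being fitted without the array pairing, where 8 genes of the array were called in either direction and 0 of these genes were called lower. With the values of the series table, of which 99.1% and 99.5% lay within 0.1 (log2) of the ratios used here, it was 0.0691 at a log2 ratio of -0.96; rounding to 1 decimal made many pairs of arrays identical, 1321 genes were called, and among the genes described here Cox7a2l and Ndufv3 were called higher (2) and Cox4i2 lower. Under the other 9 alternatives the adjusted p was 0.0114 or less. At a fold threshold of 2 in place of 1.5, 0 of these genes passed as lower. Cox8b minus Cox8a lay between -1.04 and -0.89 under 14 alternatives.

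Medians moved by less than 0.05 in every case. Median centring gave 0.047 for all genes tested here, 0.047 for complex I, 0.047 for complex II, 0.059 for complex III, 0.040 for complex IV and 0.049 for complex V, while the median of all genes on the array moved to 0.036. The complex IV median was -0.001 with normexp, -0.008 with the mean over all probes, -0.006 at a signal above 200, 0 with no filter and 0 with the series table, and that of complex I was 0.005 with normexp and 0 with the series table, where that of complex V was also 0. With an array left out the median of all these genes ranged from 0.004 to 0.009, that of complex I from 0.006 to 0.008, of complex II from 0.003 to 0.020, of complex III from -0.015 to 0.016, of complex IV from -0.017 to -0.015 and of complex V from 0.012 to 0.017. Cox6a2, Cox7b2 and Cox8c gave no measured ratio above the floor. The 95% intervals of the 81 tested genes other than Cox8b all included 0 and reached from -0.29 to 0.41 at the widest. With 2 arrays, changes of these 81 genes within those intervals were not resolved.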
